A study of Homo sapiens with 54 samples.

Results

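The comparison set HT-29 cells harvested at 16 h against HT-29 cells harvested at 4 h, in the absence of tumour necrosis factor (TNF). Arrays were taken by their titles, as all those with TNF at 0 ng/ml at these times, which gave 12 of the 54 arrays of the series, 6 at each time. Each side held 2 arrays of untreated cells, 2 of cells given epidermal growth factor (EGF) at 100 ng/ml and 2 of cells given insulin at 500 ng/ml. HT-29 is an epithelial cell line from a human colon adenocarcinoma. The whole study gave TNF, EGF and insulin, singly and in pairs, to this line and took RNA for Affymetrix arrays after 4, 8 and 16 h, in biological duplicate. All cells, untreated ones included, had been seeded at 50000 cells per cm2 and primed for 24 h with interferon-gamma at 200 U/ml, so no group shows HT-29 cells without interferon. The untreated groups received none of the 3 factors. A harvest before treatment was not used here, so hours after treatment, hours in culture and hours since priming cannot be told apart. The duplicates are called biological in the study's design text, but their separate cultures are not described further, and the number of arrays limits the precision of every value.

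EGF acts through its receptor tyrosine kinase and the ERK pathway, whose early target genes include transcription factors, phosphatases that switch ERK off and further EGF receptor ligands. Insulin acts through the kinase AKT, which holds FOXO transcription factors out of the nucleus, and it promotes lipid synthesis. ATF4 is a transcription factor made when amino acids run short or the endoplasmic reticulum is stressed, and it turns on genes of amino acid uptake, amino acid synthesis and transfer RNA charging. Interferon-gamma acts through STAT and IRF factors on genes of antigen presentation and antiviral defence.

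Signals are given in the linear units of the deposited MAS5 values, in which every array has a trimmed mean of 500. The drift is the mean over the 3 treatments of the log2 difference, 16 h minus 4 h, with its standard error after ±, and genes were called at a limma adjusted p below 0.05. Of 8105 genes tested, 2436 (30.1%) were called, 1327 (16.4%) of them higher and 1109 (13.7%) lower at 16 h. The median drift of all genes was -0.0017. The drift was at least 2-fold for 259 of the genes that rose and for 94 of those that fell. It had 1 sign in all 3 treatments for 2379 of the 2436 (97.7%). The call rests on the mean of these 3 treatments, so a shared sign was largely set by the choice of genes. The 6 arrays of 16 h lay above all 6 of 4 h for 677 genes (8.35% of those tested) and below all 6 for 536 (6.61%).

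Arrays of both times had like signal distributions, with medians from 133 to 156 at 4 h and from 125 to 155 at 16 h. The log2 ratio of the 3′ to the 5′ ACTB probe set, a measure of RNA integrity, ran from -0.24 to 0.05 at 4 h and from 0.03 to 0.40 at 16 h. The 3 highest values, 0.30 to 0.40, were the replicate 2 arrays of 16 h. The same ratio for GAPDH overlapped, at -0.36 to -0.07 and -0.30 to -0.12. Without those 3 arrays 1621 genes were called, 872 higher and 749 lower, and what part the ratio plays in the drift was not tested. Of 12 colon epithelial markers, 10 passed the signal filter, whereas CDX2 at 7.11 to 20.9 and CDH17 at 18.2 to 84.3 did not. The summed signal of the 12 was 58441 to 77142 at 4 h and 77672 to 100860 at 16 h, narrowly without overlap. KRT18 was its largest part, and its own signals overlapped (20236 to 30172 and 21513 to 44257). Of the single markers only LGALS4 did not overlap (4425 to 6760 and 9619 to 12078), and VIL1 ran lower at 16 h (565 to 720 and 368 to 640). The sums of 9 fibroblast markers (780 to 1218 and 772 to 1353) and 6 endothelial markers (203 to 290 and 151 to 327) overlapped. The 9 leukocyte markers on the array summed to 696 to 1010 at 4 h and 513 to 782 at 16 h, PTPRC being at most 43.0. In cultures measured as a whole, a change in the share of cells in a given state cannot be told apart from a change of RNA per cell.

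The promoters of 8 genes are shown first, because the groups to which they belong moved together and some of their promoters hold a short motif. The share of a list with a match follows from the members chosen, whatever their drift. The sequences are RefSeq's, on GRCh38.p14, each from 250 bases before to 50 after the start of the gene, read 5′ to 3′ on the gene's strand, and 6710 of the 8105 genes had one. The ATF4-type element was searched on both strands as TGATGNAA, the interferon-stimulated response element as GAAA, 2 bases of any kind and GAAA again, and the E2F element as TTTGGCGC or TTTCCCGC. For each element the called members with a match and the largest drift were taken, and the match is in capitals. CHAC1 (chr15:40953221-40953520, plus strand), ATF3 (chr1:212565157-212565456, plus strand), ASNS (chr7:97872359-97872658, minus strand) and SLC3A2 (chr11:62881449-62881748, plus strand) hold the ATF4-type element.
CHAC1: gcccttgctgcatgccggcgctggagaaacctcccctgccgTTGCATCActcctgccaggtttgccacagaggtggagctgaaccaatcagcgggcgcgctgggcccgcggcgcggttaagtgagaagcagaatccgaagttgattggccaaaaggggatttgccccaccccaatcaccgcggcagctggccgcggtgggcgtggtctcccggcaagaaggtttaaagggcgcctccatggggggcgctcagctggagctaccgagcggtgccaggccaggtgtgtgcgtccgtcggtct
ATF3: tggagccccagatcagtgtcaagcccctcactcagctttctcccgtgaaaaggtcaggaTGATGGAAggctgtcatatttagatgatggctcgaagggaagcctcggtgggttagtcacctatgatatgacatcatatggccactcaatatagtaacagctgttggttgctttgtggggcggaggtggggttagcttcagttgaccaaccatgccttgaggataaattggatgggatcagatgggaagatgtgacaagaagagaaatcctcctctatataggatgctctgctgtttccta
ASNS: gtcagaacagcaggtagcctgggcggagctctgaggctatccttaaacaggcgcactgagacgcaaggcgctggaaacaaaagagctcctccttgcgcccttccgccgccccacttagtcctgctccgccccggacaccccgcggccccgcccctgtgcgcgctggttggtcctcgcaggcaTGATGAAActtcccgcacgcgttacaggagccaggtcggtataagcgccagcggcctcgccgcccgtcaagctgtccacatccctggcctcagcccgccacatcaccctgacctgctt
SLC3A2: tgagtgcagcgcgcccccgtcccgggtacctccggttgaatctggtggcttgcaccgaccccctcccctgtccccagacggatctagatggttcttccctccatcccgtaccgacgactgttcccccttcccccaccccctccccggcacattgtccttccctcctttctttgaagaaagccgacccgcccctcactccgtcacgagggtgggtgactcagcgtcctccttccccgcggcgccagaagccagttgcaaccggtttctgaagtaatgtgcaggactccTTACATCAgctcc
GINS1 (chr20:25407423-25407722, plus strand) and CDC25A (chr3:48188368-48188667, minus strand) hold the E2F element.
GINS1: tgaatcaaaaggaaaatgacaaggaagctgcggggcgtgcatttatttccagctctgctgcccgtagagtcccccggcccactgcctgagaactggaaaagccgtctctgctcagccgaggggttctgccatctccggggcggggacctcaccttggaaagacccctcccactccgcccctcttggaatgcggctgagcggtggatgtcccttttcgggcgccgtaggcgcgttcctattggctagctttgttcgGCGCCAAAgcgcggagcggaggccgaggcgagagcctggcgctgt
CDC25A: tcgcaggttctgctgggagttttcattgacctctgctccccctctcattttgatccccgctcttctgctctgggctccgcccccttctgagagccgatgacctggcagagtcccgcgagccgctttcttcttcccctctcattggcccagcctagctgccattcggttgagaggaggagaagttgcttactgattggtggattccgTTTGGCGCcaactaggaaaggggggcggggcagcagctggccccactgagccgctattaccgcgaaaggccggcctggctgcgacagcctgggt
IFI44L (chr1:78620198-78620497, plus strand) and IFI6 (chr1:27672143-27672442, minus strand) hold the interferon-stimulated response element, 2 and 3 times.
IFI44L: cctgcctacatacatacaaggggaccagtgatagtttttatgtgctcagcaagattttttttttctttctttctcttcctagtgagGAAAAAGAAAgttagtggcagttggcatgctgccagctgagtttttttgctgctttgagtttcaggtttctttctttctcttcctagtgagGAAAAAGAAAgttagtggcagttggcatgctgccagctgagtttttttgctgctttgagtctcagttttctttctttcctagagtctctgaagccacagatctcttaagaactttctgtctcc
IFI6: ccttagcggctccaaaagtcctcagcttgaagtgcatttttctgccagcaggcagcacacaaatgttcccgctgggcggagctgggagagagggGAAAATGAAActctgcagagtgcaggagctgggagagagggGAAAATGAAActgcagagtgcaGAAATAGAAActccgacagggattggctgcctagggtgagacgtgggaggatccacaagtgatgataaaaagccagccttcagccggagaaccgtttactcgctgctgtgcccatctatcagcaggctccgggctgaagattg

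The ATF4-type element was in 4 of 22 promoters of the ATF4 list (18.2%) and in 125 of the 6710 promoters (1.86%). It was in 38 of 1115 promoters of genes that rose (3.41%) and 9 of 955 of genes that fell (0.942%). The interferon-stimulated response element was in 20 of 28 promoters of the type I interferon list (71.4%) against 215 of all (3.2%). The E2F element was in 14 of 31 promoters of the G1/S list (45.2%) against 253 of all (3.77%). A sterol element (TCAC, 1 base of any kind and CCAC) was in 1 of 16 sterol promoters (6.25%) against 71 of all (1.06%). That promoter was of SREBF2, which was not called, and INSIG1, HMGCS1, MSMO1 and IDI1 had no match. The element TGACGTCA was in 3 of 20 promoters of the ERK-responsive list (15%) against 229 of all (3.41%). A match did not go with a call in each gene. HERC5, with 3 interferon-stimulated response elements, was at 0.06 (limma adjusted p = 0.85), while RSAD2, with none, was at 1.88. GINS2, with an E2F element, was at -0.28 (limma adjusted p = 0.31), while UNG, with none, was at -1.66. Letters that match an element describe the sequence and do not show that a factor binds there.

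Amino acid response genes were the list with the highest median. Of 28 ATF4 and amino acid response genes tested, 25 rose, 1 fell and 2 did not pass, and their median drift was 1.35. All 25 that rose had their 6 arrays of 16 h above the 6 of 4 h, against 8.35% of all genes tested. DDIT4, an inhibitor of the growth kinase complex mTORC1, had 609, 1338 and 1630 as its lowest, median and highest signal at 4 h and 7748, 9956 and 11443 at 16 h, and rose by 3.10 ± 0.14 (adjusted p = 2.12e-18). CHAC1, an enzyme that breaks down glutathione, went from 220, 662 and 794 to 2891, 3715 and 4969, a rise of 2.88 ± 0.20 (adjusted p = 2.41e-13). For both genes the lowest 4 h arrays were those of untreated cells.

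TRIB3, a pseudokinase that ATF4 induces and that in turn restrains it, had signals of 2091, 2402 and 2728 at 4 h and 12778, 15805 and 16969 at 16 h. It rose by 2.65 ± 0.09 (adjusted p = 4.08e-21), and the 3 treatments gave 2.57, 2.74 and 2.64 for untreated, EGF and insulin cells. ATF3, a stress-induced transcription factor, rose by 2.65 ± 0.09 (adjusted p = 4.08e-21), from 472 to 568 at 4 h to 2523 to 3933 at 16 h. The 4 h arrays of these genes were close together, and their rise was of like size in each treatment. ASNS, which makes asparagine, rose by 1.85 ± 0.10 (adjusted p = 7.71e-16), from 2034, 3183 and 4804 to 8378, 11682 and 12240. SLC3A2, the heavy chain of a large neutral amino acid transporter, rose by 1.68, and SLC7A11, the cystine transporter subunit that pairs with it, by 2.24 ± 0.11 (adjusted p = 5.6e-17). ATF4 itself, given because the list bears its name, had 2597, 3783 and 5434 at 4 h and 8665, 10176 and 12129 at 16 h and rose by 1.37 ± 0.12 (adjusted p = 4.12e-11).

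Transfer RNA charging enzymes moved the same way. Of 16 cytosolic aminoacyl-tRNA synthetase genes 10 rose, none fell and 6 were not called (median 0.55). For those 10 every 16 h array lay above every 4 h array, against 8.35% of all genes tested. With the most variable instead of the brightest probe set of each gene, 8 of the 16 were higher and 2 lower. SARS1, for serine, rose by 1.26 ± 0.10 (adjusted p = 4.25e-12) from 2587 to 3492 at 4 h to 6018 to 8067 at 16 h. AARS1, for alanine, rose by 1.21 and GARS1, for glycine, by 1.17. Of the 12 largest rises, 2 more belong to amino acid use. CTH, which makes cysteine, had 45.8, 80.3 and 220 at 4 h and 884, 1147 and 1400 at 16 h and rose by 3.48 ± 0.23 (adjusted p = 5.04e-14). SLC6A9, a glycine transporter, rose by 2.54 ± 0.41 (adjusted p = 9.53e-06) from 12.8, 15.2 and 61.7, close to the lowest signals of the arrays, to 134, 177 and 215. GDF15, a cytokine released by stressed cells and placed here among p53 targets, rose by 3.32 ± 0.13 (adjusted p = 6.92e-20), from 439, 702 and 973 to 4959, 6966 and 8250. In these 3 genes too every 16 h array lay above every 4 h array.

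The other genes among the 12 largest rises have more varied roles. G0S2, an inhibitor of the main triglyceride lipase, had 140, 183 and 359 at 4 h and 2414, 2960 and 3634 at 16 h, and rose by 3.84 ± 0.18 (adjusted p = 3.78e-18). TSC22D3, a gene that glucocorticoids and FOXO factors induce, rose by 2.95 ± 0.11 (adjusted p = 4.94e-20), from 257 to 454 up to 2695 to 3134. SLC16A4, of the monocarboxylate transporter family, rose by 3.13 ± 0.33 (adjusted p = 3.39e-09) from 4.16, 26.3 and 43.2, near the lowest signals of the arrays, to 188, 252 and 452. No array of 16 h fell within the 4 h range of any of these genes.

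**Figure D1:**
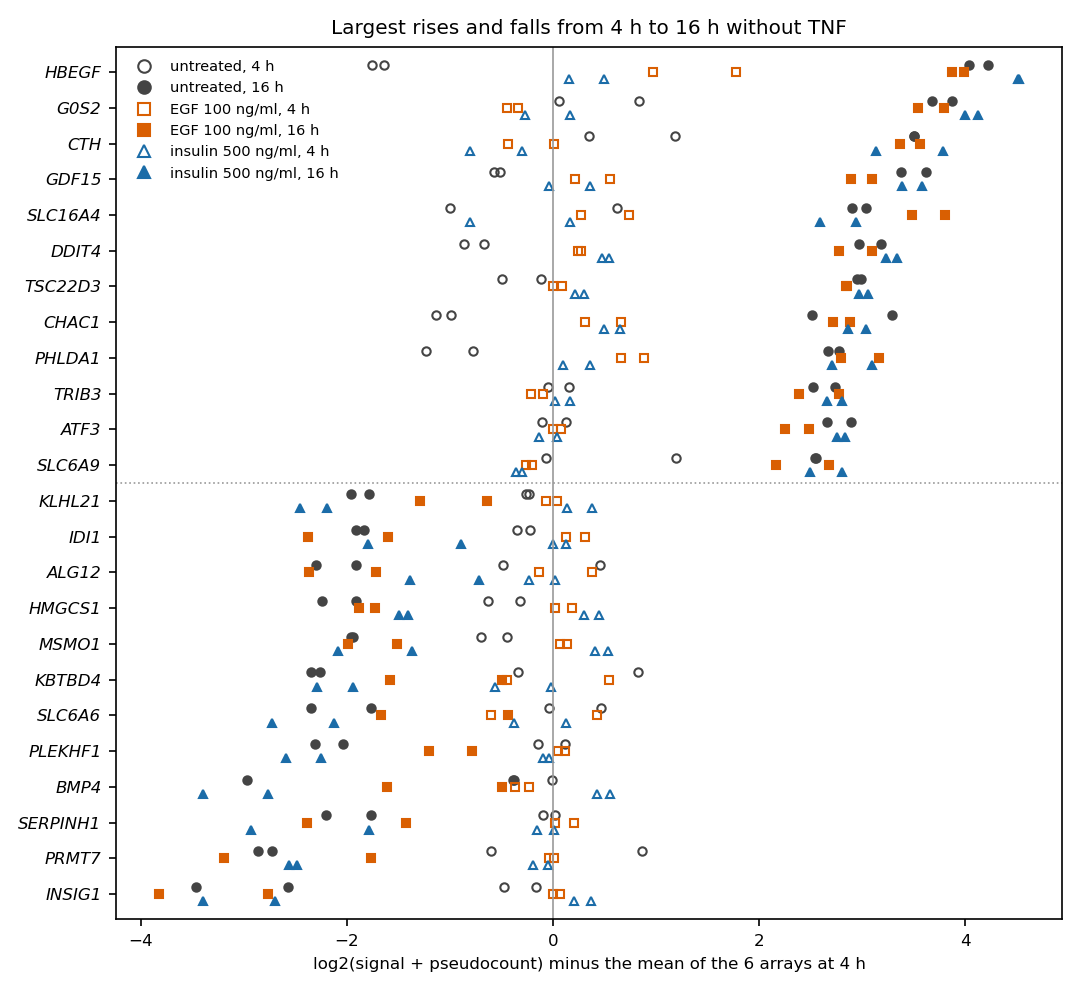
The 12 largest rises (top) and 12 largest falls (bottom) of the drift, as log2(signal + pseudocount) minus the mean of the 6 arrays at 4 h. Each point is 1 array, open at 4 h and filled at 16 h, with shape and colour for treatment. HBEGF stands at 4.19 and INSIG1 at -3.12 in the fit, and only SLC6A6 and KBTBD4 have arrays of both times that overlap.

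The gene with the largest rise was HBEGF, a membrane-bound ligand of the EGF receptor. Its lowest, median and highest signals were 26.7, 154 and 441 at 4 h and 1924, 2302 and 3023 at 16 h, and it rose by 4.19 ± 0.24 (adjusted p = 8.84e-16). The lowest 4 h signals, both of untreated cells, are near the lowest of the arrays. ERK-responsive and immediate early genes had 25 of 29 members higher, none lower and 4 not called (median 1.18). For 15 of the 29 the arrays of 16 h lay above all of 4 h, against 8.35% of all genes tested. PHLDA1, a growth factor-induced regulator of cell survival, rose by 2.87 ± 0.13 (adjusted p = 2.12e-18) from 244, 696 and 1099 to 3806, 4144 and 5376. DUSP1, a phosphatase of stress-activated kinases and ERK, rose by 1.83 ± 0.15 (adjusted p = 5.38e-12) and the ERK phosphatase DUSP6 by 1.51 ± 0.19 (adjusted p = 8.37e-08). EGR1, an early transcription factor, had 171, 397 and 884 at 4 h and 1204, 1379 and 1746 at 16 h and rose by 1.77 ± 0.17 (adjusted p = 5.42e-10). In EGR1, PHLDA1 and HBEGF the 2 lowest arrays were those of untreated cells at 4 h.

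Other parts of the EGF receptor system were also measured. Of 9 receptor family and ligand genes 4 rose, 1 fell and 4 did not pass, against 16.4% higher and 13.7% lower over all genes tested. EREG, the ligand epiregulin, rose by 1.67 ± 0.18 (adjusted p = 7.97e-09) from 542, 1010 and 1533 to 2067, 3099 and 3863. EGFR rose by 0.56 ± 0.15 (adjusted p = 0.00502) with overlapping signals of 327 to 987 and 531 to 1094, and did not pass with its most variable probe set (adjusted p = 0.299) or without the 3 arrays with the higher ACTB ratio. CBL, the ubiquitin ligase that sends the activated receptor to degradation, fell by 0.91 (adjusted p = 0.0132), and its 4 h arrays lay narrowly above those of 16 h (121 to 180 and 44.3 to 121). MYC rose by 0.83 ± 0.14 (adjusted p = 1.32e-05), from 1452, 2396 and 3646 to 3791, 3874 and 4640. The cyclin gene CCND1 was at -0.31 ± 0.15 and did not pass (adjusted p = 0.137).

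Most genes of the type I interferon list rose, in cells whose priming with interferon-gamma had begun 24 h before treatment. Of 36 type I interferon-stimulated genes 29 rose, none fell and 7 were not called (median 0.85). RSAD2, the antiviral enzyme viperin, had 22.3, 78.5 and 102 at 4 h and 190, 286 and 314 at 16 h and rose by 1.88 ± 0.19 (adjusted p = 1.02e-09). IFI44L rose by 1.74 ± 0.18 (adjusted p = 1.51e-09) from 80.7, 107 and 121 to 278, 384 and 457, and OASL, of the oligoadenylate synthetase family, by 1.41 ± 0.09 (adjusted p = 6.57e-14). In these 3 genes every 16 h array was above every 4 h array, as in 21 of the 36 and in 8.35% of all genes tested. IFI6, whose promoter holds the response element 3 times, rose by 1.33 (adjusted p = 0.00771), but its signals of 58.4 to 375 at 4 h and 352 to 643 at 16 h overlapped. The call was lost without the second untreated array of 4 h (adjusted p = 0.069) and without the 3 arrays with the higher ACTB ratio (adjusted p = 0.117). The interferon gene IFNB1 stayed near the lowest signals at both times, with 5.99 to 13.9 and 6.19 to 18.5 (0.08 ± 0.26, adjusted p = 0.87).

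MHC class II genes, which present peptides to helper T cells, had 8 of 13 members higher and 5 not called (median 0.73). HLA-DRB1 rose by 1.58 ± 0.16 (adjusted p = 1.08e-09) from 2194, 2878 and 3683 to 6948, 8374 and 11219. HLA-DPA1 rose by 1.38 and HLA-DPB1 by 1.37, and HLA-DRA by 0.74 ± 0.13 (adjusted p = 3.73e-05). CIITA, the coactivator that switches on this family, rose by 0.85 ± 0.14 (adjusted p = 7.61e-06), although its signals of 115 to 255 and 182 to 568 overlapped and its other 2 probe sets were not called. MHC class I and antigen processing genes had 7 of 15 higher and 8 not called (median 0.36), and 4 higher and 1 lower with the most variable probe set of each gene. HLA-E rose by 0.58 ± 0.09 (adjusted p = 4.7e-06) and HLA-C by 0.64 ± 0.15 (adjusted p = 0.00149). Some HLA genes, such as those of class I, are close to each other in sequence, and their probe sets may read more than 1 of them.

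The targets of interferon-gamma did not move as a group. Of 23 tested 7 rose, 5 fell and 11 were not called (median 0.10). Both shares were above the 16.4% higher and 13.7% lower over all genes tested. CXCL9, a chemokine for activated T cells, fell by 1.44 ± 0.08 (adjusted p = 2.43e-15), from 979, 1362 and 1425 to 389, 492 and 535. CXCL11, of the same chemokine family, fell by 0.63 ± 0.15 (adjusted p = 0.00176), whereas CXCL10 was at 0.27 ± 0.15 (adjusted p = 0.179). The 3 chemokines bind the same receptor. IRF9, a subunit of the complex that binds the interferon-stimulated response element, rose by 1.25 ± 0.14 (adjusted p = 1.2e-08) from 959, 1329 and 1617 to 2889, 3075 and 3252, and IRF1 by 0.56 ± 0.10 (adjusted p = 3.34e-05). IDO1, which degrades tryptophan, was at -0.24 ± 0.12 and did not pass (adjusted p = 0.149). TNFSF10, the death ligand TRAIL, fell by 0.97 ± 0.10 (adjusted p = 7.85e-10), from 2592, 3416 and 4254 to 1415, 1672 and 2170. CXCL9, CXCL11 and TNFSF10 were lower, and IRF9 and IRF1 higher, on every 16 h array than on any 4 h array.

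Cell division genes fell. Among the 34 genes of G1/S and DNA replication 29 fell, none rose and 5 were not called, and the median of -0.71 was the lowest of the lists. GINS1, a subunit of the replicative helicase, had 1422, 1534 and 1903 at 4 h and 337, 484 and 643 at 16 h and fell by 1.70 (adjusted p = 1.13e-10). UNG, which removes uracil from DNA, fell by 1.66 (adjusted p = 3.2e-09), from 1103, 1302 and 1612 to 250, 448 and 509. The flap nuclease FEN1 fell by 1.35 and the helicase subunit MCM6 by 0.66, from 2499, 2913 and 3602 to 1514, 1970 and 2219. In these 4 genes every 16 h array was below every 4 h array, as in 24 of the 34 and in 6.61% of all genes tested. CDC25A, a phosphatase that opens S phase, fell by 1.43 ± 0.32 (adjusted p = 0.000739), with signals of 251 to 565 and 37.4 to 314 that overlapped, and did not pass without the 3 arrays with the higher ACTB ratio (adjusted p = 0.0901).

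Of 35 G2/M and mitosis genes 23 fell, 1 rose and 11 were not called (median -0.42). CDC20, an activator of the anaphase-promoting complex, fell by 1.26 (adjusted p = 4.62e-11) from 2291, 2420 and 3058 to 810, 976 and 1463. The cyclin genes CCNA2 and CCNB1 fell by 1.10 and 0.74, CCNB1 from 2920 to 4655 at 4 h to 1891 to 2369 at 16 h. Cyclin-dependent kinase inhibitors and p53 targets had 7 of 16 members higher, against 16.4% of all genes tested, none lower and 9 not called (median 0.34). GADD45A, a growth arrest gene, rose by 2.02 ± 0.21 (adjusted p = 1.79e-09) from 331, 526 and 813 to 1383, 2253 and 3089. The antiproliferative gene BTG1 rose by 1.87 ± 0.11 (adjusted p = 6.86e-15). CDKN1A, the inhibitor p21, rose by 1.29 ± 0.19 (adjusted p = 1.37e-06), but its 4 h signals ran from 43.9 to 677 and overlapped the 624 to 717 of 16 h.

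The largest fall of all was in a sterol gene. Of 18 sterol synthesis and uptake genes 10 fell, none rose and 8 were not called (median -0.37). INSIG1, which keeps the sterol sensor complex in the endoplasmic reticulum and is itself a target of it, had 2561, 3652 and 4613 at 4 h and 240, 419 and 589 at 16 h and fell by 3.12 (adjusted p = 6.89e-14). The pathway enzymes MSMO1, HMGCS1 and IDI1 fell by 1.81, 1.78 and 1.74. HMGCS1, the second enzyme of the pathway, went from 683, 1144 and 1450 to 214, 296 and 394 (adjusted p = 2.32e-09). In all 4 genes the 16 h arrays were below all 4 h arrays. SREBF2, the transcription factor of the pathway, was at -0.16 ± 0.13 (adjusted p = 0.423). Of 11 fatty acid synthesis genes 6 fell, against 13.7% of all genes tested, 1 rose and 4 did not pass. FASN, the fatty acid synthase, fell by 1.49 (adjusted p = 7.93e-08) from 1284, 1815 and 2062 to 333, 655 and 909.

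**Figure D2:**
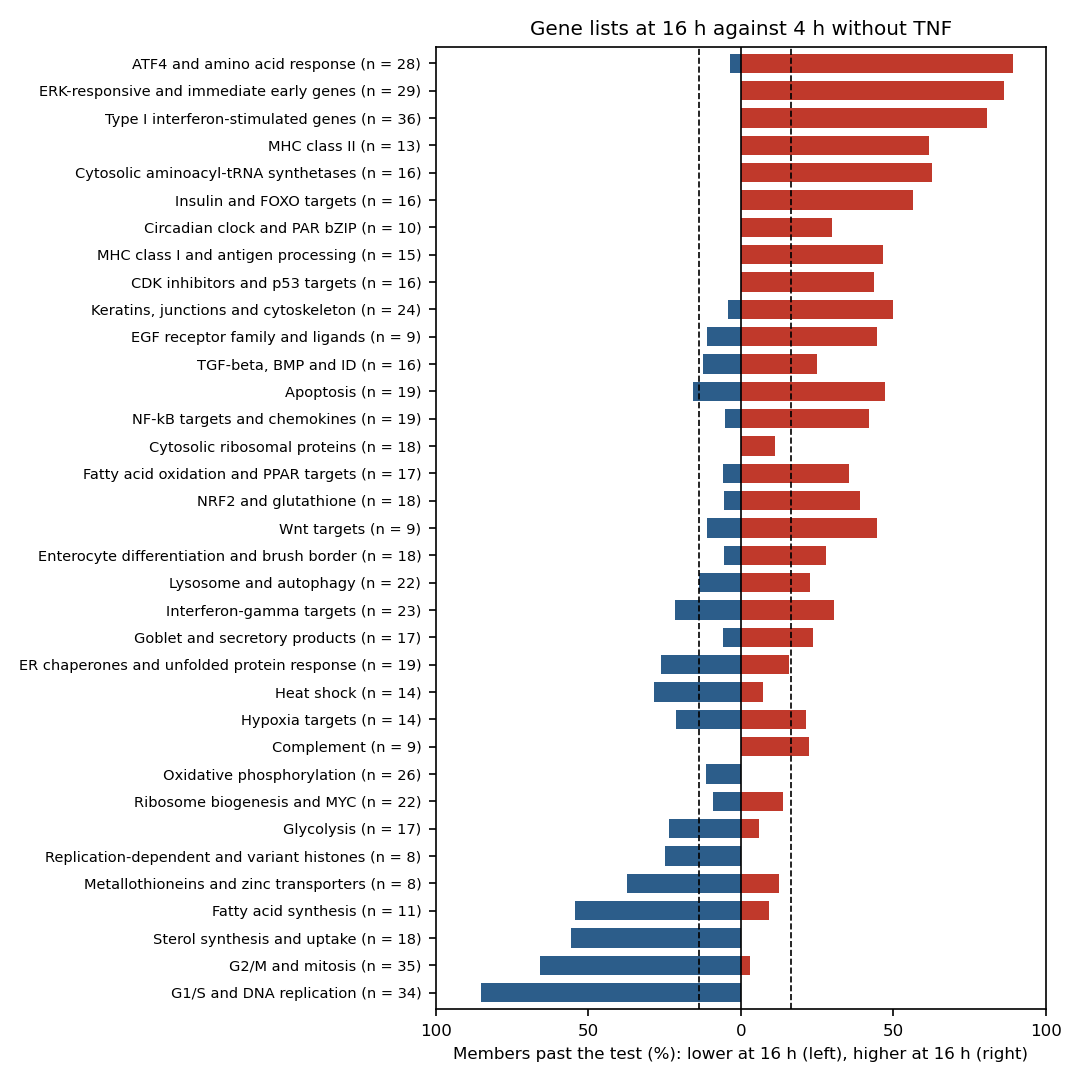
Percentage of the tested members of 35 gene lists that passed the test, to the right where higher and to the left where lower at 16 h, ordered by the median drift of the list. Dashed lines mark the percentages over all genes tested, 16.4% and 13.7%. ATF4 and amino acid response genes stand at the top with 25 of 28 higher and G1/S genes at the bottom with 29 of 34 lower.

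The other genes among the 12 largest falls are less alike in role. PRMT7, a protein arginine methyltransferase, went from 127, 192 and 371 to 10.5, 21.2 and 49.5, at the lowest signals of the arrays, and fell by 2.60 (adjusted p = 8.86e-07). SERPINH1, a collagen chaperone, fell by 2.08 (adjusted p = 0.000373) from 338 to 439 to 38.7 to 133. BMP4, a growth factor of the bone morphogenetic protein family, fell by 1.94 (adjusted p = 2.15e-05), with 281, 340 and 549 at 4 h and 23.7, 78.1 and 279 at 16 h. Its highest 16 h arrays came close to the 4 h range, and the log2 difference was -1.48, -0.75 and -3.58 in untreated, EGF and insulin cells. PLEKHF1, KBTBD4, ALG12, a mannosyltransferase of glycan assembly, and KLHL21, an adaptor of a cullin ubiquitin ligase, fell by 1.86, 1.82, 1.74 and 1.72. SLC6A6, a taurine transporter, fell by 1.84 (adjusted p = 0.031) with overlapping signals of 96.6 to 216 and 12.5 to 110. This call was lost on dropping each of 6 of the 12 arrays in turn, with adjusted p up to 0.0962 without the second EGF array of 16 h.

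Insulin and FOXO targets, many of which FOXO factors turn on when AKT is quiet, had 9 of 16 members higher, none lower and 7 not called (median 0.46). TXNIP, which blocks thioredoxin and limits glucose uptake, had 1392, 2028 and 2481 at 4 h and 7757, 9153 and 14230 at 16 h and rose by 2.31 ± 0.15 (adjusted p = 5.04e-14). FOXO3 rose by 1.43 ± 0.17 (adjusted p = 2.53e-08), and PCK2, a mitochondrial enzyme that is also an ATF4 target, by 2.11 ± 0.11 (adjusted p = 1.27e-16). The 16 h arrays of these 3 genes lay above those of 4 h. IRS2, an insulin receptor substrate, was at 0.30 ± 0.20 and did not pass (adjusted p = 0.301). Of 22 lysosome and autophagy genes 5 rose, 3 fell and 14 did not pass, against 16.4% higher and 13.7% lower over all genes tested. MAP1LC3B, the autophagosome protein LC3, rose by 1.34 ± 0.10 (adjusted p = 1.37e-12) from 789 to 1071 up to 2096 to 2600.

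Stress genes of the endoplasmic reticulum did not move as a group. Of 19 chaperone and unfolded protein response genes 3 rose, 5 fell and 11 did not pass (median 0.04). Over all genes tested 16.4% rose and 13.7% fell, so the share that rose was near that of all genes. HERPUD1, of the degradation machinery, rose by 2.33 ± 0.11 (adjusted p = 3.53e-17) from 428, 598 and 836 to 2920, 3127 and 3256, and the transcription factor XBP1 rose by 0.75. The chaperone genes SDF2L1 and HSP90B1 fell by 0.90 and 0.87, and HSPA5, which encodes the main chaperone BiP, was at 0.15 ± 0.11 (adjusted p = 0.335). The chaperone genes named were lower or did not pass, while most of the ATF4 list was higher. Of 14 heat shock genes 4 fell and 1 rose, HSPE1, the mitochondrial chaperonin 10, falling by 1.56 (adjusted p = 1.05e-07) from 4893, 6283 and 7273 to 1695, 2256 and 2303. Of 19 apoptosis genes 9 rose, 3 fell and 7 did not pass, among them PMAIP1, the death-promoting NOXA, at 1.71 ± 0.16 (adjusted p = 1.78e-10) and TNFRSF10B, a receptor of TRAIL, at 1.26 ± 0.11 (adjusted p = 4.45e-11). With its most variable probe set TNFRSF10B was not called (adjusted p = 0.546). XIAP, an inhibitor of caspases, rose too, by 1.08 ± 0.18 (adjusted p = 1.25e-05).

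Epithelial structure genes rose more often than they fell. Of 24 keratin, junction and cytoskeleton genes 12 rose, 1 fell and 11 were not called (median 0.31). The epithelial markers summed above share KRT8, KRT18, KRT19, CDH1 and CLDN4 with this list, so their sum is not a separate measure. LAMB3, a laminin chain, rose by 1.94 ± 0.16 (adjusted p = 1.21e-11) from 349, 547 and 620 to 1671, 1939 and 2459. CLDN3, a tight junction protein, fell by 0.87 (adjusted p = 0.00104). Of 18 enterocyte and brush border genes 5 rose, 1 fell and 12 did not pass. Over all genes tested 30.1% were called, 16.4% higher and 13.7% lower, so the share called here was near that of all genes. KRT20, a keratin of mature colon cells, rose by 0.55 ± 0.09 (adjusted p = 2.1e-05), while the brush border protein VIL1 was at -0.33 ± 0.18 (adjusted p = 0.198). PER2, a clock repressor, rose by 1.40 ± 0.19 (adjusted p = 4.41e-07) and NFIL3, a bZIP repressor linked to the clock, by 2.14 ± 0.11 (adjusted p = 5.6e-17). They are 2 of the 3 clock and bZIP genes of 10 that passed, a share also near that of all genes, and 7 did not pass.

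Housekeeping groups showed few calls. Of 26 oxidative phosphorylation genes none rose and 3 fell, SDHA, a subunit of succinate dehydrogenase, by 0.73 (adjusted p = 4.1e-05). Of 18 ribosomal protein genes 2 rose and none fell, although all 18 values were above 0, with a median of 0.21. Of 22 ribosome biogenesis genes 3 rose and 2 fell, and of 17 glycolysis genes 1 rose and 4 fell. Apart from the 4 glycolysis genes that fell, these shares are near or below those over all genes.

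Most of the drift came after 8 h. The step from 8 h to 16 h is also the longer one, so a steady change would fall mostly there too. The 8 h mean lay between those of 4 h and 16 h for 1686 of the 2436 genes called (69.2%). At 8 h the median share of the drift already reached was 14.0% (upper quartile 33.4%), 15.4% for the genes that rose and 12.7% for those that fell. The 8 h and 16 h differences share the 4 h arrays, and the 8 h arrays had ACTB log2 ratios up to 0.98. INSIG1 had a median signal of 3227 at 8 h against 3652 at 4 h and 419 at 16 h, and GINS1 1407 against 1534 and 484. TXNIP, at 1751, was within its 4 h range. HERPUD1, at 1576, and CHAC1, at 1367, were already above all their 4 h arrays by their 8 h median.

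**Figure D3:**
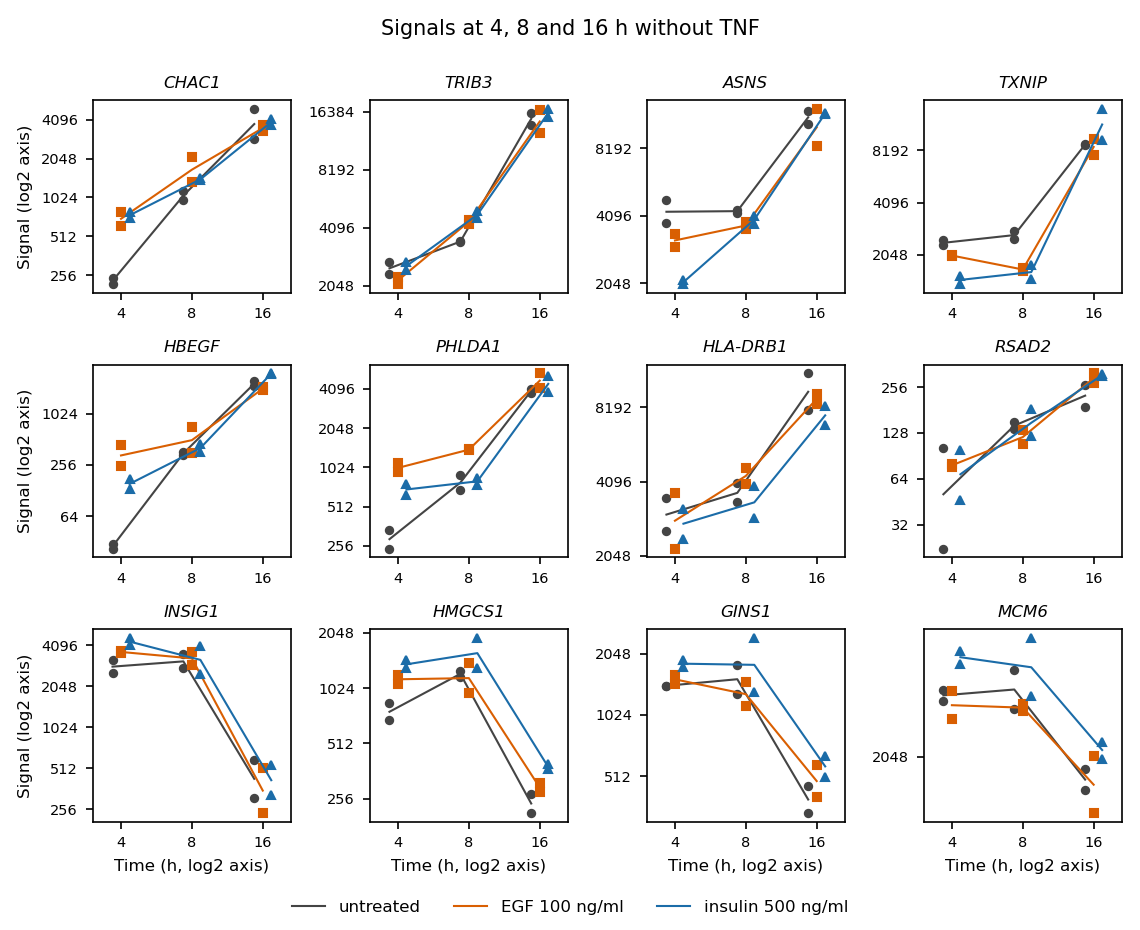
Signal at 4, 8 and 16 h of 12 genes without TNF, on log2 axes for signal and time. Points are single arrays, lines join the means of 2 replicates on the log2 scale, and colour gives treatment. CHAC1, TRIB3 and HBEGF rise over both steps, whereas TXNIP, INSIG1, HMGCS1 and GINS1 have most of their change between 8 h and 16 h.

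The drift was then tested for each treatment separately, in the fit over all 27 groups. In untreated cells 957 genes (11.8%) were called, 574 higher (7.08%) and 383 lower (4.73%). In EGF cells 1025 (12.6%) were called, 632 higher (7.8%) and 393 lower (4.85%), and in insulin cells 935 (11.5%), 513 higher (6.33%) and 422 lower (5.21%). Fitted on their own arrays only, the 3 treatments gave 433, 611 and 819 calls. Leaving out 1 array lowered the counts to 545 to 641 in untreated cells, 361 to 693 in EGF cells and 463 to 585 in insulin cells. The lowest counts were without the second untreated array of 16 h, the second EGF array of 16 h and the first insulin array of 4 h. When each array was centred on its own median, 78.2% instead of 61.7% of the calls in EGF cells were higher, and 42.4% instead of 54.9% of those in insulin cells. Each of these 3 drifts rests on its own 4 arrays, although same-numbered arrays of different treatments deviated together in most pairs within a time. Called with the same sign in all 3 were 422 genes, 277 higher and 145 lower. Of the 957 genes called in untreated cells 97.5% had the same sign in EGF cells and 97.6% in insulin cells, and their median size was 0.88 in untreated cells and 0.71 in each of the others, the genes having been chosen by the first of these values. Across the 8105 genes, which are not independent replicates and share the array platform, Pearson's r was 0.67 between untreated and EGF cells, 0.68 between untreated and insulin cells and 0.59 between EGF and insulin cells.

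By list, the 3 treatments gave medians of 1.39, 1.26 and 1.51 (untreated, EGF, insulin) for amino acid response genes and -0.87, -0.78 and -0.62 for G1/S genes. Type I interferon-stimulated genes had 0.65, 0.86 and 0.94, MHC class II genes 0.66, 0.82 and 0.58, and sterol genes -0.28, -0.51 and -0.35. ERK-responsive genes had 1.51, 0.72 and 0.95. Each of these lists kept its sign in every treatment.

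**Figure D4:**
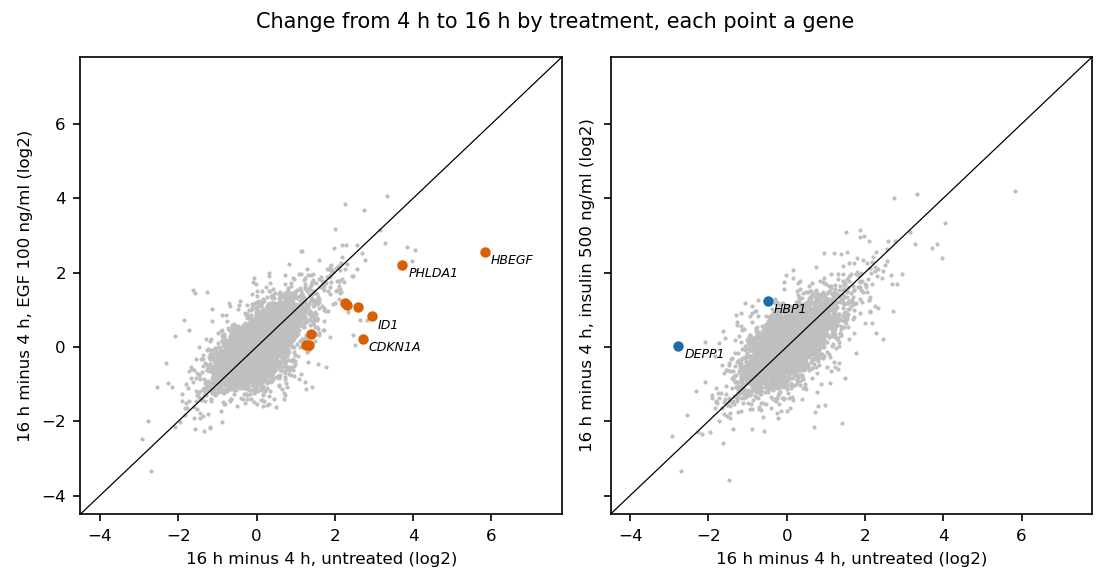
Log2 difference of 16 h minus 4 h for 8105 genes in untreated cells (horizontal) against EGF cells (left) and insulin cells (right), with the line of equality. Coloured points are the genes whose difference between treatments passed the test, 10 for EGF and 2 for insulin, of which 6 are named. All 10 EGF genes lie below the line.

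Whether EGF altered the drift was tested as the difference between the drift in EGF cells and in untreated cells. Of 8105 genes 10 (0.123%) were called, all with a smaller rise under EGF, and 368 had an unadjusted p below 0.05. That is under a share of 0.05 of the genes, so these p-values of the limma test were not in excess. In all 10 both EGF arrays lay above both untreated arrays at 4 h, while at 16 h they lay above in 3 genes, below in 4 and overlapped in 3. HBEGF had 26.7 and 29.8 in untreated cells and 246 and 441 with EGF at 4 h, and 2452 and 2152 against 2084 and 1924 at 16 h. Its difference in drift was -3.27 (95% interval -4.46 to -2.08, adjusted p = 0.00864). The untreated 4 h signals are near the lowest of the arrays, so the size depends on the pseudocount, and with a pseudocount of 50 it was -2.48 and not called (adjusted p = 0.0506). ID1, a transcriptional inhibitor of differentiation, had 1893 and 1607 in untreated cells and 8019 and 6782 with EGF at 4 h, and 14249 and 12651 against 11840 and 14410 at 16 h. Its difference was -2.11 (-2.63 to -1.59, adjusted p = 1.66e-05), and this was the only one of the 8 largest to pass under every alternative run.

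CDKN1A had a difference of -2.49 (-3.42 to -1.57, adjusted p = 0.00953), with 43.9 and 180 in untreated cells and 677 and 552 with EGF at 4 h, and 643 and 694 against 704 and 717 at 16 h. The complement inhibitor gene CD55 was at -1.52, PHLDA1 at -1.52, the G protein regulator RGS2 at -1.28, the inositol phosphatase INPP1 at -1.21 and the Wnt inhibitor DKK1 at -1.17 (adjusted p from 0.00864 to 0.0349). The last 2 of the 10, IER3 at -1.07 and GCNT3 at -1.04, are named after their values were seen. The drift of RGS2, INPP1 and CDKN1A was 0.06, 0.05 and 0.21 in EGF cells and 1.34, 1.26 and 2.71 in untreated cells. The calls of CDKN1A, PHLDA1, RGS2 and DKK1 each depended on 7 single arrays of the 8, being lost when any was dropped, and those of HBEGF, CD55 and INPP1 on 5, 4 and 3 of them. Adjusted p reached 0.361 for PHLDA1 without the first EGF array of 16 h, and 1 to 12 genes were called in these runs. Centring each array on its median left ID1 alone called, and without the 3 arrays of 16 h with the higher ACTB ratio 2 genes were called.

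ERK-responsive genes as a list had 3 of 29 lower by this test, none higher and 26 not called (median -0.63) against -0.03 over all genes, and 25 of the 29 values were below 0. For insulin by time, which uses the same untreated arrays, none of the 29 was called, with a median of -0.31 and 23 values below 0. EGR1, at -1.94 (-2.79 to -1.08, adjusted p = 0.0544), did not pass. It had 171 and 241 in untreated cells and 884 and 779 with EGF at 4 h, and 1204 and 1505 against 1416 and 1331 at 16 h. The sterol, G1/S, G2/M, MHC class II and type I interferon lists had no called member. INSIG1 was at -0.63, with an interval of -1.67 to 0.40.

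**Figure D5:**
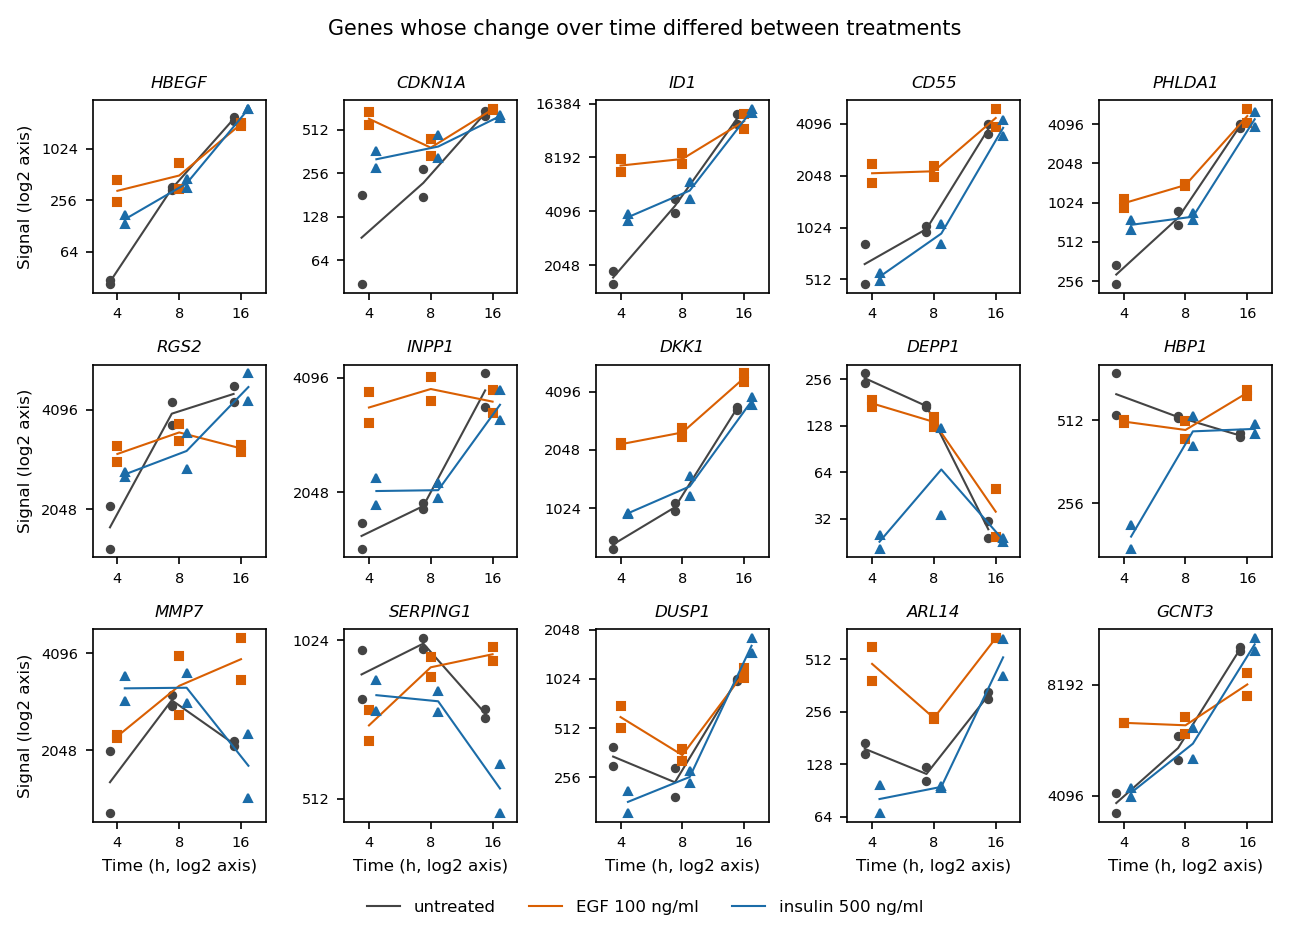
Signal at 4, 8 and 16 h, on log2 axes for signal and time, of the 15 genes named for a drift that differed between treatments. Points are single arrays, lines join the means of 2 replicates on the log2 scale, and colour gives treatment. HBEGF, ID1, CD55 and DKK1 start higher with EGF and lie closer to untreated cells at 16 h, and DEPP1 and HBP1 start lower with insulin.

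For insulin, 2 of 8105 genes (0.0247%) had a drift that differed from that of untreated cells. An unadjusted p below 0.05 was found for 383, again under a share of 0.05 of the genes. The untreated arrays are those used for EGF. DEPP1, a FOXO-induced regulator of autophagy, had 279 and 243 in untreated cells and 25 and 20.5 with insulin at 4 h, and 30.8 and 24.2 against 22.6 and 24.1 at 16 h. Untreated cells thus lost the signal over time, whereas insulin cells were near the lowest signals of the arrays at both times, and the difference was 2.80 (1.90 to 3.70, adjusted p = 0.00224). HBP1, a transcriptional repressor that FOXO factors induce, had 535 and 755 in untreated cells and 214 and 176 with insulin at 4 h, and 443 and 458 against 455 and 498 at 16 h, a difference of 1.72 (1.22 to 2.23, adjusted p = 0.000855). Both passed when any single array was left out. Neither passed when the 4 groups were fitted alone (adjusted p = 0.823 and 0.343) or without the 3 arrays with the higher ACTB ratio, and HBP1 did not pass after median centring. TXNIP, another gene that FOXO and glucose control, was at 1.09 (0.34 to 1.84, adjusted p = 0.962), and IRS2 at 0.72 (-0.28 to 1.72).

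EGF and insulin cells were compared directly as well, and 6 genes (0.074%) had different drifts, 4 lower (0.0494%) and 2 higher (0.0247%) with EGF, while 578 had an unadjusted p below 0.05. DUSP1 had 699 and 513 with EGF and 155 and 212 with insulin at 4 h, and 1038 and 1201 against 1464 and 1817 at 16 h, a difference of -2.20 (-2.92 to -1.47, adjusted p = 0.00371). ARL14, a small GTPase, was at -2.04, CD55 at -1.78 and GCNT3, a mucin glycosyltransferase, at -0.99. MMP7, the protease matrilysin, was at 1.59 (adjusted p = 0.0479) and SERPING1, the inhibitor of complement C1, at 1.02. MMP7 had 2237 and 2284 with EGF and 2907 and 3486 with insulin at 4 h, and 3373 and 4560 against 1454 and 2304 at 16 h. Dropping any 1 of 7 arrays of the 8 took MMP7 out of the calls. None of the 6 was called after median centring or with the 4 groups fitted alone, and 0 to 15 genes were called with 1 array left out.

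A gene not called in these tests is not shown to drift alike. The median 95% interval of a difference in drift reached 0.75 to either side, and the interval lay within 1 of 0 on the log2 scale for 46.4% of genes for EGF and 47.2% for insulin. For CHAC1 the EGF difference was -1.65 (-2.65 to -0.65) and the insulin difference -1.58 (-2.59 to -0.58), and for ASNS the insulin difference was 1.09 (0.57 to 1.61), none of which passed the adjusted test. HLA-DRB1 was at -0.01 for EGF (-0.80 to 0.77) and -0.19 for insulin (-0.98 to 0.59).

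The same passage of time was set beside cells given TNF at 100 ng/ml, alone or with EGF or insulin, which use other arrays. The drift differed for 1193 genes (14.7%), 587 of them higher with TNF (7.24%) and 606 lower (7.48%). Among 36 type I interferon-stimulated genes 32 were higher, none lower and 4 not called, and RSAD2, at 1.88 without TNF, rose 4.40 more with it (adjusted p = 1.71e-14). G1/S genes had 22 of 34 lower and 12 not called (median -0.99). Amino acid response genes had 8 of 28 lower, 1 higher and 19 not called (median -0.31). BMP4, which fell without TNF, differed by 4.35, and CCL20, a chemokine of the NF-kB list that rose by 2.32 without TNF, by -3.65.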

How the data were processed

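RNA of 54 HT-29 cultures, 2 per group, was measured on 1-colour Affymetrix arrays. The authors deposited MAS5 signal intensities on a linear scale, per the submitters' processing notes, already scaled to 1 trimmed mean; other steps are not given in the sources used here. Intensities were taken as log2(signal + 12.5), the pseudocount being the 10th percentile of all signals, so folds of dim genes are understated. Of 22215 probe sets without controls, 13422 with a group mean above the median (signal 138.85) were fitted in limma 3.58.1 (R 4.3.3) over all 27 groups, with an intensity trend and 27 residual degrees of freedom. Contrasts were tested two-sided with Benjamini-Hochberg adjustment over all 13422. Each of 8105 genes is represented by its brightest probe set with 1 symbol. 8 genes had probe sets called in opposite directions for the drift. P-values measure the spread between these arrays, whatever their cultures shared.

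Named were the 12 largest rises and falls with the same sign in all treatments, up to 8 genes in each direction per interaction, up to 4 called members per list with its defining gene, and 24 set genes, of which 2 are not reported here. The arrays, lists and genes were chosen with earlier results of these data known. Alternatives were the pseudocount, filter, normalization, samples fitted, replicate block and arrays left out. Promoters came from a RefSeq table (GRCh38.p14); gene coordinates were not used, the build of the files not being given in the sources used here.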

Additional observations from a re-analysis of the deposited data

Results flagged for a closer look

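The drift differed between treatments beyond the adjusted threshold of the limma test in the genes below. For EGF against untreated cells the differences were -3.27 for HBEGF, -2.49 for CDKN1A, -2.11 for ID1, -1.52 for CD55, -1.52 for PHLDA1, -1.28 for RGS2, -1.21 for INPP1 and -1.17 for DKK1. For insulin against untreated cells they were 2.80 for DEPP1 and 1.72 for HBP1. For EGF against insulin they were 1.59 for MMP7, 1.02 for SERPING1, -2.20 for DUSP1, -2.04 for ARL14, -1.78 for CD55 and -0.99 for GCNT3.

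With TNF at 100 ng/ml against no TNF, the log2 change from 4 h to 16 h was higher for the interferon gene IFNB1 (4.92), RSAD2 (4.40), BMP4 (4.35), the chemokine CCL5 (3.88), IFIT1 (3.70), the adhesion molecule VCAM1 (3.40), PLEKHA4 (3.31) and the DNA sensor IFI16 (3.18). It was lower, as a smaller rise, a larger fall or a fall in place of a rise, for CCL20 (-3.65), the replication helicase subunit GINS2 (-3.17), RGS2 (-2.58), NRGN (-2.54), PECR (-2.47), VIL1 (-2.30), ANXA13 (-2.23) and EFNA1 (-2.20). Without TNF, IFNB1 was near the lowest signals at both times. It passed the signal filter only through other groups, so its call is not independent of that choice.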

How the results depend on the processing

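The drift gave 2036 to 2267 genes when 1 array was left out and 1621 without the 3 replicate 2 arrays of 16 h, a setting chosen after seeing the data. Within untreated, EGF and insulin cells, leaving out 1 array gave 545 to 641, 361 to 693 and 463 to 585 calls, and leaving out those 3 gave 523, 356 and 541; an arm left with 1 array is assumed to vary like the other groups. For EGF by time, insulin by time and EGF against insulin, 1 array fewer gave 1 to 12, 2 to 6 and 0 to 15 genes, and 3 fewer gave 2, 0 and 3. The lowest single-array values came without EGF at 16 h replicate 2 for the drift and for EGF cells. Centring on the median gave 604 genes in untreated cells and 1, 1 and 0 in the 3 interactions. It moved the median of all genes from -0.04 to 0.07 in EGF cells, from 0.03 to -0.08 in insulin cells, from 0.01 to -0.12 for insulin by time and from -0.03 to 0.20 for EGF against insulin. Fitting only the groups compared gave 433 genes in untreated and 611 in EGF cells and 3, 0 and 0 in the interactions. Where limma called none, the unadjusted p was below 0.05 for 291 to 524 genes for insulin by time and for 415 to 639 for EGF against insulin. With no difference in any gene, a share of about 0.05 of the genes tested would have such a p. Same-numbered arrays deviated together above a correlation of 0.1 in 8 of 15 pairs of groups (median 0.12). This held in 3 of 3 pairs within 16 h, 2 of 3 within 4 h and 3 of 9 across the times (median 0.09). The numbers were not taken as pairs, so the main p-values treat arrays that share a number as independent. The replicate block gave 2733 genes for the drift and 16 for EGF by time. The replicate block within each time gave 3047 genes for the drift. For the 3 treatments it gave 1507, 1592 and 1501 genes, and for the interactions 21, 11 and 15. The cause was not tested. Among the genes named, signs turned for IFNB1 in the drift (-0.0065 to 0.17 with 1 array fewer, -0.0063 without the 3 arrays) and for HLA-DRB1 in the interactions, with EGF (0.14 by quantile normalization, 0.081 by median centring, -0.39 to 0.36 with 1 array fewer) and insulin (-0.44 to 0.051 with 1 array fewer), none of them called. Over the alternatives at least 24 of the 25 ATF4 genes, 22 of the 25 ERK-responsive, 25 of the 29 type I interferon-stimulated, 22 of the 29 G1/S and 8 of the 10 sterol genes kept their call. Signals near the lowest of the arrays, as for HBEGF in untreated cells at 4 h, SLC6A9, SLC16A4, PRMT7 and DEPP1, limit what their folds can show.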

Other observations

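Some groups outside the lists with many calls held single genes with large changes. The counts of these groups stand beside 16.4% higher and 13.7% lower over all genes tested. VEGFA, an angiogenic growth factor of the hypoxia list, had 507, 696 and 1247 as lowest, median and highest signal at 4 h and 2267, 3247 and 4103 at 16 h and rose by 2.09 ± 0.14 (limma adjusted p = 1.29e-13), while of the 14 hypoxia genes tested 3 rose and 3 fell. LCN2, a siderophore-binding protein of epithelial defence, rose by 1.43 ± 0.10 (limma adjusted p = 6.65e-13) from 1778 to 2461 up to 4510 to 6845, and 4 of 17 goblet and secretory genes rose and 1 fell. IL32, a cytokine, rose by 1.72 ± 0.16 (limma adjusted p = 3.00e-10) and was the second largest of the 8 of 19 NF-kB targets that rose. PPARG, a nuclear receptor of fatty acid metabolism, rose by 1.06 ± 0.13 (limma adjusted p = 6.37e-08), whereas CPT1A, which brings fatty acids into mitochondria, fell by 0.63 (limma adjusted p = 0.0113), a call lost with its most variable probe set and without the first insulin array of 16 h. The zinc exporter gene SLC30A1 rose by 0.94 ± 0.18 (limma adjusted p = 0.00014), while 3 metallothionein genes of the same list of 8 fell, MT1X by 0.62, a call lost without any of 8 single arrays; metallothionein genes are near copies that probe sets may not separate.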
